A study of Mus musculus with 6 samples.

Results

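The genes described here build the contractile lattice of muscle. They are the leiomodins *Lmod2* and *Lmod3*, the tropomodulins *Tmod1* and *Tmod4*, the myosin assembly factors *Unc45b*, *Smyd1* and *Hsp90aa1*, and the muscle kelch genes *Klhl40* and *Klhl41*. They were chosen by name for these roles, with earlier results of these data known. All 9 were found among the 55421 genes of the deposited table, each in 1 row. Cell models of myotonic dystrophy type 1 (DM1) were compared. In DM1 an expanded CTG repeat in the 3′ untranslated region of *DMPK* is transcribed into RNA with a long CUG repeat. The normal group was C2C12-CUG5, the mouse myoblast line C2C12 stably transfected with a *GFP* plasmid that carries 5 CTG repeats. The DM1 group was C2C12-CUG200, the same line with a plasmid that carries 200 CTG repeats. Both groups were selected with G418 and both were sampled at day 4 of differentiation, with 3 libraries each. In this model the repeat sits in a *GFP* transcript and not in *Dmpk*, and the sources used here do not say whether a line is 1 clone or a pool, nor whether each library is a separate transfection. The p-values therefore measure the spread between these libraries.

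In a sarcomere, actin thin filaments and myosin thick filaments overlap at fixed lengths. Tropomodulins cap the slow-growing pointed end of the thin filament, and the related leiomodins nucleate actin and act at the same end in the opposite sense. Newly made myosin heads are folded by the chaperone UNC45B together with HSP90, and SMYD1 is a muscle lysine methyltransferase that binds the same machine. KLHL40 and KLHL41 are kelch proteins of cullin 3 ubiquitin ligases that stabilise nebulin and leiomodin 3. Loss of *LMOD3*, *KLHL40* or *KLHL41* in people causes nemaline myopathy.

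A total of 7 of the 9 genes were significantly lower in the DM1 group with an adjusted p below 0.05 (quasi-likelihood test of edgeR, with p-values adjusted after Benjamini and Hochberg over 19005 genes), against 8.73% of all genes tested. None was higher at this threshold, against 7.13% of all genes. None was higher with DESeq2 either, which called 1762 of 16125 genes higher, nor at an unadjusted p under 0.05. The share of all genes at an unadjusted p under 0.05 was not counted, here or for the lists below. *Lmod3* and *Unc45b* also passed the fold change cutoff of the study, an absolute log2 fold change over 1, which together with the adjusted p 0.816% of all genes passed in this direction and 1.36% in the other. *Tmod4* just missed the adjusted threshold, and *Hsp90aa1* was the only gene of the 9 with a mean that was not lower in the DM1 group. In 8 of the 9 genes every DM1 library was below every normal library, a pattern found in 19.3% of all genes. The median log2 fold change of the 9 genes was -0.81, whereas that of all genes tested was 0.015. With RNA from whole cultures, fewer myotubes and less RNA of a gene in each myotube cannot be told apart.

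**Figure D1:**
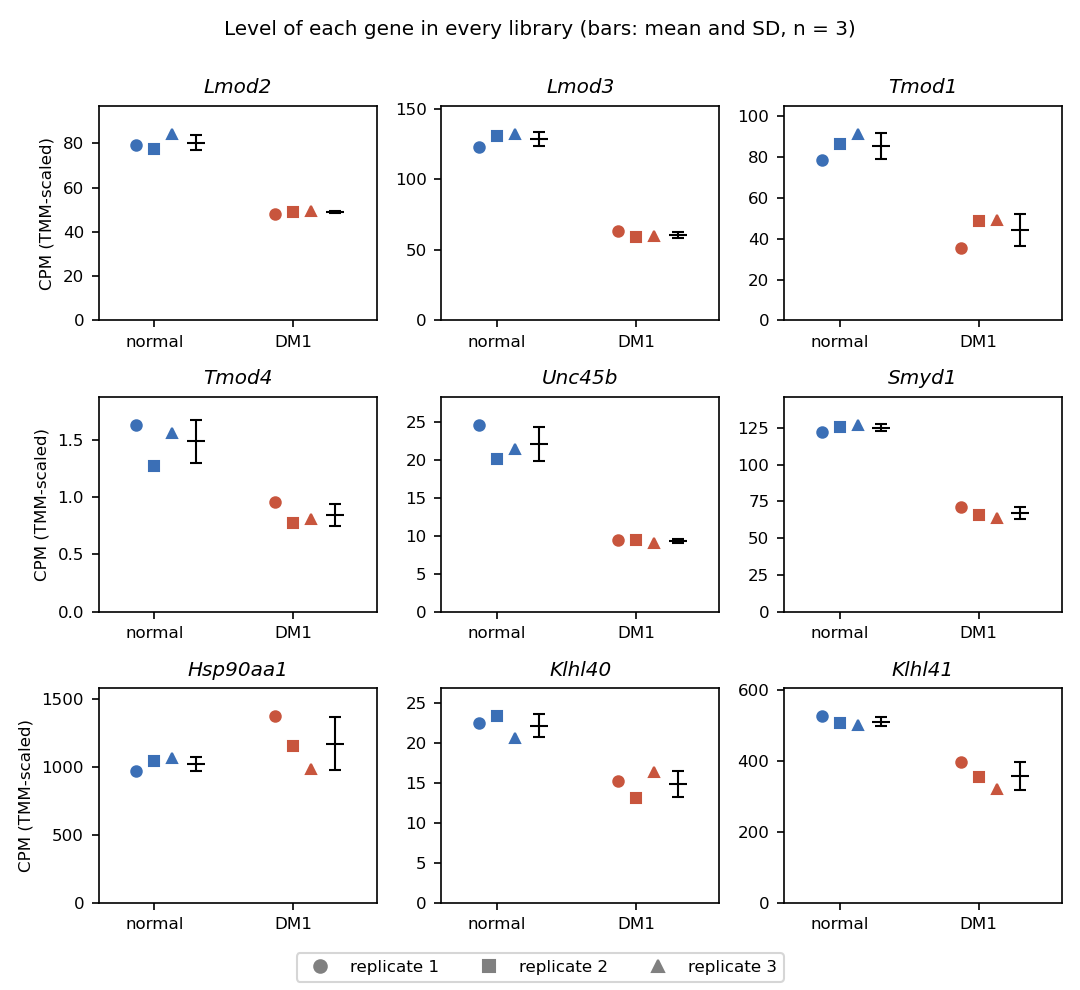
Level of each of the 9 genes in TMM-scaled CPM (counts scaled to library size, vertical axes from 0) in the normal and DM1 groups, with 1 symbol per library and the mean and SD of 3 libraries beside them. All groups are separate except for *Hsp90aa1*, where the DM1 library 3 (984 CPM) falls within the normal range.

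The libraries held between 61707889 and 80957325 counts. Mitochondrial genes took 9.04% of the counts in normal library 1, 8.90% in DM1 library 3 and between 12.3% and 13.5% in the others, and leaving these genes out changed no call among the 9. A floor of 3 counts equalled 0.0371 to 0.0486 CPM, and all 9 genes lay far above it. Over all genes the number called lower, 1660, became 668, 774 and 485 without normal library 1, 2 or 3. It became 1376, 568 and 2111 without DM1 library 1, 2 or 3. The number called higher, 1356, became 628, 665 and 543, and 1258, 589 and 1678, in the same fits. The counts of called genes that leave out a library are to be read against these. The cultures held muscle RNA as labelled, since *Acta1*, the actin of skeletal muscle, had between 1857 and 4249 CPM in the 6 libraries.

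The promoters of 7 of the 9 genes could be read from RefSeq, from 250 bases before to 50 after the start that RefSeq gives each gene on GRCm38.p6. These starts can differ from those of the gene spans given here, and the windows of *Tmod1* and *Unc45b* lie inside those spans. They are those of *Lmod2*, *Tmod1*, *Tmod4*, *Unc45b*, *Smyd1*, *Klhl40* and *Klhl41*. They are shown because most of these genes were lower together, and both strands were searched for letters that muscle transcription factors are known to bind. The MEF2 motif stood in the *Klhl41* window and in 1.86% of all 32841 windows of this length. The E-box CAGCTG, bound by MyoD and myogenin, stood in those of *Lmod2*, *Klhl40* and *Klhl41* and in 16.3% of all windows. The MCAT letters CATTCC, bound by TEAD factors, stood in the *Tmod1* window and in 14.7% of all windows. The capitals mark the motif in each run of 30 bases below, given on the plus strand, from chr2:69670047-69670076 and chr2:69669981-69670010 for *Klhl41*, chr6:24597759-24597788 for *Lmod2*, chr9:121777585-121777614 for *Klhl40* and chr4:46039047-46039076 for *Tmod1*.
Klhl41 MEF2: gagccggtgtCTATATTTAGccggtgggat
Klhl41 E-box: ttcaatctcaaaCAGCTGaacagcagcact
Lmod2 E-box: cactcctcacacCAGCTGctgaccagcccg
Klhl40 E-box: aaagcctctgccCAGCTGtcctctgtgcgt
Tmod1 MCAT: cagggaaccacaCATTCCcctgcctccggg

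The broader E-box letters CANNTG, which include CAGCTG, stood in the windows of *Klhl40*, *Klhl41*, *Lmod2*, *Tmod4* and *Unc45b* and in 72.3% of all windows. The CArG box of SRF (1.63% of all windows) and the heat shock letters GAANNTTC (7.86% of all windows) were in none of the 7 windows. These matches describe the letters only, and no binding was measured.

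Leiomodin 3, a strong actin nucleator of skeletal muscle, is encoded on the minus strand at chr6:97238534-97252759 (GRCm38, as are all gene spans here). *Lmod3* had 123, 130 and 132 CPM in the normal libraries and 63.2, 59.4 and 59.4 CPM in the DM1 libraries. Every DM1 library was near 60 and every normal library above 120, without overlap. The mean changed from 128 ± 5.01 to 60.7 ± 2.18 CPM (SD, n = 3 each). The log2 fold change was -1.08 (SE 0.0772, 95% interval -1.26 to -0.91, adjusted p = 5.38e-04, edgeR's quasi-likelihood test). This lay at percentile 2.07 of the log2 fold changes of all genes tested.

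Leiomodin 2 is the form known for setting thin filament length in the heart, and *Lmod2* spans chr6:24597762-24605414 on the plus strand. Its levels were 79.5, 77.3 and 84.3 CPM in the normal group and 48.3, 49.0 and 49.3 CPM in the DM1 group. The DM1 libraries lay within about 1 CPM of each other and all below the normal ones. The mean went from 80.4 ± 3.58 to 48.9 ± 0.549 CPM (SD over 3 libraries each). The log2 fold change was -0.72 (SE 0.0744, adjusted p = 0.00168 with edgeR).

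Both leiomodins fell, and their ratio was compared within libraries. The log2 ratio of *Lmod3* to *Lmod2* CPM within a library was 0.63, 0.75 and 0.65 in the normal group and 0.39, 0.28 and 0.27 in the DM1 group. The groups did not overlap, and the difference of -0.36 gave p = 0.1 in an exact two-sided permutation test, the smallest value that 3 against 3 libraries allow (0.15 after adjustment over 6 gene pairs). This test therefore cannot bring any of these ratios under 0.05.

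Tropomodulin 1 is the main pointed-end cap of striated muscle. *Tmod1* (chr4:46038935-46116032, plus strand) had 78.7, 86.1 and 91.3 CPM in the normal libraries and 35.3, 48.4 and 49.1 CPM in the DM1 libraries. DM1 library 1 was the lowest, and the groups did not overlap. The log2 fold change was -0.95 (SE 0.132, adjusted p = 0.00369 with edgeR), from 85.4 ± 6.32 to 44.3 ± 7.77 CPM (SD, n = 3 each). *Tmod1* shares exonic bases with *Tstd2* on the opposite strand, a gene with between 2577 and 3662 counts, and the strand setting of the counting is not given in the sources used here, so reads of the pair may not be fully separated.

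Tropomodulin 4 is a skeletal muscle form, encoded by *Tmod4* at chr3:95124476-95129209 on the plus strand. It was by TPM the least abundant of the 9 genes, counted 137, 78 and 109 times in the normal group and 71, 55 and 54 times in the DM1 group. As CPM these were 1.63, 1.27 and 1.56 against 0.955, 0.772 and 0.812. The groups did not overlap, but the log2 fold change of -0.81 (SE 0.244, 95% interval -1.37 to -0.26) had an adjusted p of 0.0544 with edgeR, which misses the threshold. The adjusted p was 0.0483 when only genes with at least 10 counts in every library were tested, and 0.0416 when counts were divided by 4. It stayed above the threshold with DESeq2 (0.0846), without a filter (0.0828), with limma on log2(TPM + 1) (0.0711) or log2(TPM + 0.1) (0.0842) and without any 1 library (0.0759 to 0.168). The log2 ratio of *Tmod4* to *Tmod1* differed by 0.15 between the groups, with overlapping libraries (p = 0.7 in the exact permutation test).

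The other genes of the leiomodin and tropomodulin family did not pass the test. *Tmod3*, the widely expressed tropomodulin that also caps non-muscle actin, had 93.4, 91.1 and 88.0 CPM in the normal libraries and 118, 95.2 and 92.7 CPM in the DM1 libraries. Its log2 fold change was 0.17 (95% interval -0.071 to 0.41, adjusted p = 0.325 with edgeR). *Lmod1*, the smooth muscle leiomodin, had 2.66 ± 0.642 and 2.48 ± 0.367 CPM (SD, n = 3 each; adjusted p = 0.819 with edgeR). *Tmod2*, the tropomodulin of neurons, was counted 82, 38 and 69 times in the normal group and 37, 7 and 0 times in the DM1 group. As CPM its groups did not overlap, and its log2 fold change was -2.09 (95% interval -4.39 to 0.21). Its adjusted p was 0.201 and became 0.0260 without DM1 library 1 (both with edgeR). In all, 3 of the 7 family genes fell (8.73% of all genes did), namely *Lmod2*, *Lmod3* and *Tmod1*. None rose with edgeR (7.13% of all genes did) or with DESeq2, which called 1762 of 16125 genes higher. At an unadjusted p under 0.05 none rose either.

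As a share of the summed TPM of the family (TPM scales by transcript length), *Lmod3* took 37.6% ± 0.661 in the normal group and 28.1% ± 0.539 in the DM1 group (SD, n = 3 each). The share of *Tmod3* was 16.6% ± 0.922 in the normal group and 29.7% ± 3.17 in the DM1 group, without overlap. *Lmod2* took 26.4% ± 0.766 and 25.4% ± 0.699 with overlapping libraries, and *Tmod1* 18.0% ± 0.754 and 15.2% ± 3.01, also with overlap. In TPM itself *Tmod3* was at 42.9 ± 3.33 in the normal group and 44.4 ± 2.75 in the DM1 group, so that its share differed while its level overlapped between the groups.

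**Figure D2:**
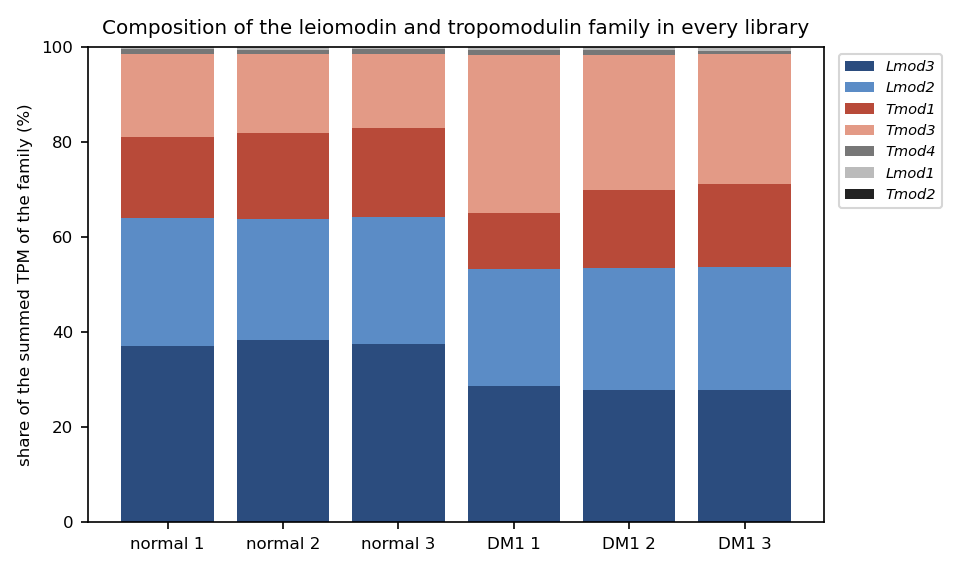
Share of the summed TPM of the 7 leiomodin and tropomodulin genes (vertical axis, %) taken by each gene in every library (1 stacked bar per library). The *Lmod3* segment is near 38% in the normal libraries and 28% in the DM1 libraries, and *Tmod3* takes between 27.4% and 33.3% of the DM1 bars.

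UNC45B is the muscle-specific myosin chaperone, and *Unc45b* spans chr11:82910550-82943403 on the plus strand. It had the lowest log2 fold change of the 9 genes. Its levels were 24.6, 20.2 and 21.5 CPM in the normal libraries and 9.44, 9.46 and 9.07 CPM in the DM1 libraries, and each DM1 library lay below 10 CPM and each normal one above 20. The mean fell from 22.1 ± 2.29 to 9.32 ± 0.221 CPM (SD over 3 libraries each). The log2 fold change was -1.25 (SE 0.114, 95% interval -1.51 to -0.99, adjusted p = 0.00114 with edgeR), at percentile 1.45 of all genes. The antisense genes *Unc45bos* and *Slfn5os* share exonic bases with it but had at most 18 counts in any library.

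*Unc45a*, the form that all cell types use, had 14.5, 13.1 and 13.9 CPM in the normal libraries and 13.7, 11.7 and 12.7 CPM in the DM1 libraries. Its groups overlapped, and its log2 fold change was -0.12 (95% interval -0.38 to 0.13, adjusted p = 0.508 with edgeR). The log2 ratio of *Unc45b* to *Unc45a* was 0.76, 0.62 and 0.63 in the normal group and -0.53, -0.31 and -0.49 in the DM1 group. The ratio was above 0 in every normal library and below 0 in every DM1 library, with a difference of -1.11 (p = 0.1 in the exact permutation test, 0.15 adjusted over the 6 pairs). On the TPM scale *Unc45b* made up 49.8% ± 1.53 of the pair in the normal group and 31.5% ± 1.91 in the DM1 group (SD, n = 3 each).

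SMYD1 methylates lysines and is needed for thick filament assembly. *Smyd1* (chr6:71213940-71322233, minus strand) had 122, 126 and 127 CPM in the normal libraries and 71.3, 65.5 and 63.5 CPM in the DM1 libraries. The groups stood well apart, with 125 ± 2.39 against 66.8 ± 4.06 CPM (SD, n = 3 each). Its log2 fold change was -0.90 (SE 0.0794, 95% interval -1.08 to -0.72, adjusted p = 0.00104 with edgeR). The log2 ratio of *Smyd1* to *Unc45b* averaged 2.50 in the normal group and 2.84 in the DM1 group without overlap, a difference of 0.34 (p = 0.1 in the exact permutation test, 0.15 adjusted).

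None of *Smyd2*, *Smyd3*, *Smyd4* and *Smyd5*, the other SMYD methyltransferases, passed the adjusted threshold with edgeR, but 1 of them was called lower with DESeq2, and by edgeR with a replicate block, with at least 10 counts in every library, with counts divided by 4 and without DM1 library 3. With 8.73% of all genes called lower, 0 or 1 of 4 is no result about these genes. *Smyd3* and *Smyd5* were lower at an unadjusted p under 0.05, with log2 fold changes of -0.31 and -0.62 and adjusted p-values of 0.117 and 0.0590. The call of *Smyd1* held in every fit that left out 1 library.

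HSP90 alpha is the stress-inducible cytosolic HSP90 that works with UNC45B and SMYD1 on myosin, and *Hsp90aa1* spans chr12:110690605-110702728 on the minus strand. It had 965, 1038 and 1061 CPM in the normal libraries and 1370, 1150 and 984 CPM in the DM1 libraries. DM1 library 3 fell within the normal range and the other DM1 libraries lay above it. The log2 fold change was 0.19 (SE 0.123, 95% interval -0.086 to 0.47, adjusted p = 0.332 with edgeR), and it was 0.078 without DM1 library 1 and 0.30 without DM1 library 3, where the adjusted p was 0.0690.

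The constitutive form *Hsp90ab1* had 2953, 2583 and 2937 CPM in the normal group and 1705, 1773 and 2167 CPM in the DM1 group, without overlap. It fell with a log2 fold change of -0.59 (SE 0.114, adjusted p = 0.0125 with edgeR), a call that was lost without normal library 1 (0.0543), normal library 3 (0.0672) or DM1 library 2 (0.0653). The log2 ratio of *Hsp90aa1* to *Hsp90ab1* was -1.61, -1.32 and -1.47 in the normal libraries and -0.32, -0.62 and -1.14 in the DM1 libraries. Every DM1 library was above every normal one, with a difference of 0.77 (p = 0.1 in the exact permutation test, 0.15 adjusted), although the DM1 libraries were widely spread. *Hsp90aa1* thereby made up 20.3%, 22.8% and 21.9% of the TPM of the pair in the normal libraries and 37.1%, 33.8% and 26.0% in the DM1 libraries. *Hsp90b1*, the form of the endoplasmic reticulum, had 1165 ± 40.3 and 1372 ± 222 CPM (SD, n = 3 each), with an adjusted p of 0.227 that became 0.0309 without DM1 library 3 (edgeR).

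**Figure D3:**
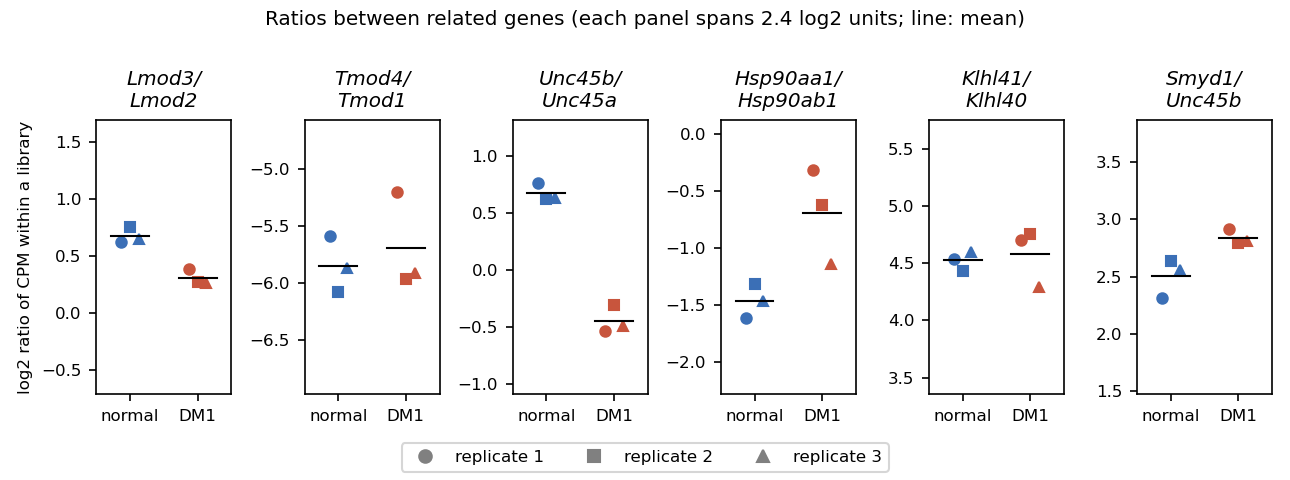
Log2 ratio of CPM between 6 pairs of related genes in each library (vertical axes, each spanning the same range), with 1 symbol per library and a line at the mean of each group. The groups are separate for *Lmod3*/*Lmod2*, *Unc45b*/*Unc45a*, *Hsp90aa1*/*Hsp90ab1* and *Smyd1*/*Unc45b*, and overlap for *Tmod4*/*Tmod1* and *Klhl41*/*Klhl40*.

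Of the 21 genes of the HSP90 machine other than *Hsp90aa1*, 6 were lower (8.73% of all genes) and none was higher (7.13% of all genes), with a median log2 fold change of -0.16. *Hsph1*, a nucleotide exchange factor of HSP70, was lower by every fit that left out 1 library and had 123, 113 and 115 CPM in the normal group against 70.1, 72.0 and 78.1 in the DM1 group (log2 fold change -0.67, SE 0.0812, adjusted p = 0.00249 with edgeR). *Hspa4*, a related exchange factor, fell by 0.37 on the log2 scale (adjusted p = 0.0208 with edgeR), but its adjusted p reached between 0.0642 and 0.113 without any 1 of the normal libraries and 0.0759 without DM1 library 2. The number of lower genes of this group was 1 without normal library 1, normal library 3 or DM1 library 2, 2 without normal library 2, 3 without DM1 library 1 and 7 without DM1 library 3, where 2 were higher. *Hspa8*, *Hsph1*, *Dnaja1* and *Dnajb1* of this group are also among 12 targets of the heat shock factor HSF1. Of these 12 targets 2 were lower, *Hsph1* and the co-chaperone gene *Bag3*, and none was higher, against 8.73% and 7.13% of all genes. So few calls are no result about the targets. The number lower was 1 without normal library 2, normal library 3 or DM1 library 2 and 4 without DM1 library 1, and 1 gene was higher without DM1 library 3. *Bag3* fell by 0.46 on the log2 scale (adjusted p = 0.0170 with edgeR), which was lost without normal library 2 (0.0662), normal library 3 (0.0857) or DM1 library 2 (0.0777) and with limma on either TPM scale. Library sizes alone, and limma on either TPM scale, gave 3 lower genes of the HSP90 machine in place of 6, and limma gave 1 lower HSF1 target.

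A list of 8 sarcomeric myosin heavy chain genes held *Myh1*, *Myh2*, *Myh3*, *Myh4*, *Myh6*, *Myh7*, *Myh7b* and *Myh8*. Such genes encode the proteins that UNC45B folds. All 8 listed genes were lower (8.73% of all genes were), and 7 of them passed both cutoffs. Their median log2 fold change was -1.77, below that of every one of the 9 assembly genes. *Myh8*, the perinatal myosin, had 24.8, 23.2 and 25.1 CPM in the normal group against 2.89, 3.76 and 3.11 CPM in the DM1 group (log2 fold change -2.90, SE 0.136, adjusted p = 7.65e-05 with edgeR). *Myh7*, the slow myosin, had a log2 fold change of -2.13 (adjusted p = 9.97e-04) and *Myh6*, the alpha cardiac myosin, one of -2.01 (adjusted p = 0.00205, both with edgeR), though the call of *Myh6* was lost with limma on log2(TPM + 0.1). Of the 8 genes, 7 were lower without normal library 1, normal library 3 or DM1 library 2 and with limma on log2(TPM + 1), and 6 with limma on log2(TPM + 0.1). Their summed level ran from 1428 to 1851 CPM in the normal libraries and from 521 to 786 CPM in the DM1 libraries.

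KLHL41 acts on nebulin and in the alignment of nascent myofibrils. *Klhl41* (chr2:69670120-69684230, plus strand) was by TPM the most abundant of the 9 genes after *Hsp90aa1* and had 526, 507 and 501 CPM in the normal libraries and 397, 356 and 320 CPM in the DM1 libraries. The groups did not overlap, and the DM1 libraries were more widely spread. The mean fell from 511 ± 13.3 to 358 ± 38.5 CPM (SD over 3 libraries each). Its log2 fold change was -0.52 (SE 0.0967, 95% interval -0.74 to -0.30, adjusted p = 0.0107 with edgeR). The adjusted p was 0.0502 without normal library 1 and 0.0532 without DM1 library 2.

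KLHL40 binds and protects leiomodin 3 and nebulin. *Klhl40* (chr9:121777607-121783818, plus strand) had 22.6, 23.4 and 20.7 CPM in the normal libraries and 15.3, 13.1 and 16.3 CPM in the DM1 libraries, without overlap. Its log2 fold change was -0.58 (SE 0.117, 95% interval -0.84 to -0.31, adjusted p = 0.0141 with edgeR). The call was lost without normal library 1 (0.0561), normal library 2 (0.0593) or DM1 library 2 (0.0554), and in a limma test on log2(TPM + 1) (0.0535). The log2 ratio of *Klhl41* to *Klhl40* differed by 0.059 between the groups with overlapping libraries (p = 0.7 in the exact permutation test).

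Among 14 tested genes of other kelch proteins and of the cullin 3 ligase, 3 were lower (8.73% of all genes) and none was higher (7.13% of all genes), and *Klhl38* and *Kbtbd13* had 0 counts in all libraries. *Klhl31*, a kelch gene of skeletal muscle, had 33.4, 33.5 and 36.7 CPM in the normal group and 15.4, 18.4 and 21.4 CPM in the DM1 group, a log2 fold change of -0.91 (SE 0.129, adjusted p = 0.00393 with edgeR) that held without any 1 library. *Klhl30* and *Klhl22* had log2 fold changes of -0.45 and -0.44 (adjusted p = 0.0131 and 0.0211 with edgeR). Both calls were lost without normal library 1, normal library 3 or DM1 library 2, where the adjusted p ran from 0.0522 to 0.0931, and that of *Klhl22* also without normal library 2 (0.0777). With limma on log2(TPM + 1) both calls were lost, and with limma on log2(TPM + 0.1) that of *Klhl30*. The kelch list had 1 lower gene without normal library 1, normal library 3 or DM1 library 2, and 1 higher gene without DM1 library 3.

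**Figure D4:**
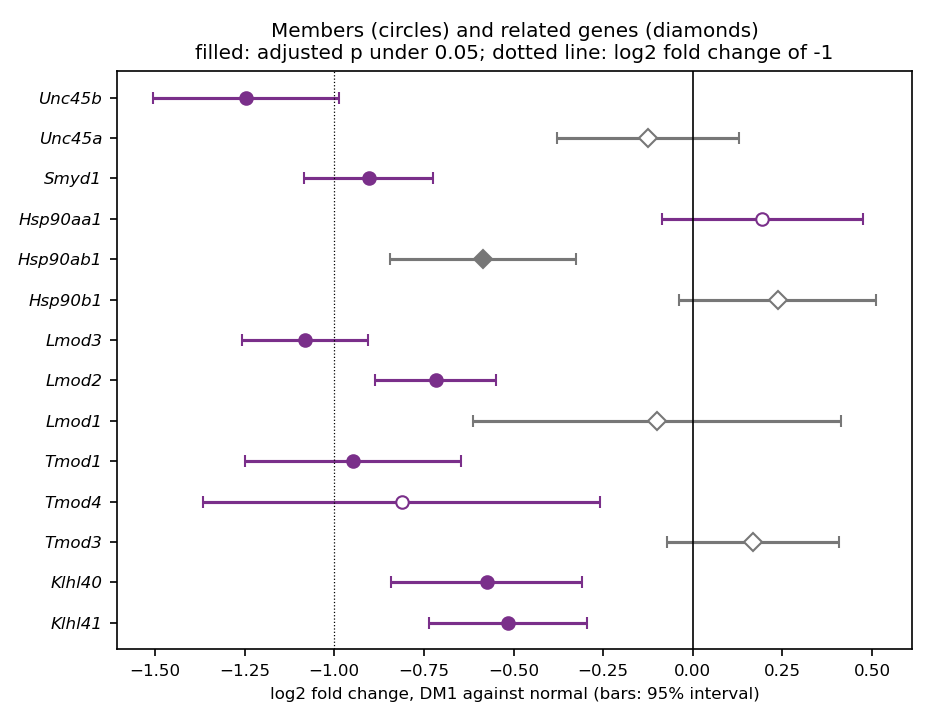
Log2 fold change of the DM1 against the normal group (horizontal axis) with its 95% interval for the 9 genes (circles) and 5 related genes (diamonds), filled where the adjusted p was under 0.05. *Unc45b* and *Lmod3* lie beyond the dotted line at -1, and *Unc45a*, *Hsp90aa1*, *Hsp90b1*, *Lmod1* and *Tmod3* have intervals that include 0.

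Other genes of nemaline myopathy and thin filament assembly were compared with the share of all genes called, 8.73% lower and 7.13% higher. Of 10 tested nemaline myopathy genes outside the 9, 6 were lower and none was higher (median log2 fold change -0.48). They included *Acta1* (log2 fold change -0.91, adjusted p = 0.00359), the slow troponin gene *Tnnt1* (-0.56, adjusted p = 0.00410) and the myopalladin gene *Mypn* (-0.92, adjusted p = 0.00842, all with edgeR), and these 3 calls held without any 1 library. Of 16 other thin filament assembly genes, 6 were lower and 1 was higher (median -0.20). *Neb* and *Cfl2* stand in both the nemaline and the thin filament list. *Nrap*, a nebulin-related scaffold of early myofibrils, fell from 48.0 ± 5.65 to 23.5 ± 4.89 CPM (SD, n = 3 each; log2 fold change -1.03, adjusted p = 0.00517 with edgeR). *Cfl1*, the non-muscle cofilin that severs actin, had 1205, 1302 and 1230 CPM in the normal group and 1730, 1630 and 1683 CPM in the DM1 group (log2 fold change 0.43, adjusted p = 0.0106 with edgeR), and its call was lost without normal library 1 (0.0531) or normal library 3 (0.0631).

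*Xirp1*, an actin-binding repeat protein of muscle, and *Wdr1*, a cofactor of cofilin, had log2 fold changes of -0.62 and -0.35 (adjusted p = 0.0180 and 0.0262 with edgeR). The call of *Xirp1* was lost without normal library 2 (0.0637), normal library 3 (0.0837) or DM1 library 2 (0.0754). That of *Wdr1* was lost without any 1 of the normal libraries or DM1 library 2 (0.0851 to 0.112). The 6 lower thin filament genes became 1 without normal library 2, normal library 3 or DM1 library 2 and 2 without normal library 1, and the higher one was lost without normal library 1 or 3. With limma on either TPM scale 1 was lower and none was higher, and the calls of *Xirp1*, *Wdr1* and *Cfl1* were lost. The 6 lower nemaline genes became 3 without any 1 of the normal libraries or DM1 library 2 and with limma on either TPM scale.

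Where none of a list's genes was called higher by edgeR with all libraries, DESeq2 also called none. At an unadjusted p under 0.05 the number higher was 0 for the HSP90, kelch, nemaline and myosin lists and for the transcription factors below. It was 1 for the HSF1 targets and for the myotube markers below. The share of all genes at this threshold was not counted, so these numbers have no share to be read against.

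Of 10 transcription factors of muscle and heat shock genes, 4 were lower and none was higher (median -0.36), against 8.73% and 7.13% of all genes. The lower ones became 2 without normal library 2, normal library 3 or DM1 library 1 and with limma on either TPM scale, and 1 without DM1 library 2. *Myog*, which encodes myogenin, had 323, 322 and 319 CPM in the normal libraries and 210, 208 and 195 CPM in the DM1 libraries (log2 fold change -0.65, SE 0.0767, adjusted p = 0.00227 with edgeR). *Myod1* had a log2 fold change of -0.52 (adjusted p = 0.0129 with edgeR), lost without normal library 3 (0.0685) or DM1 library 2 (0.0628). The *Myod1* call was also lost with limma on either TPM scale. *Srf* had a log2 fold change of -0.47 (adjusted p = 0.0462 with edgeR), and this call was kept only without DM1 library 3 (0.00449) among the fits that left out 1 library. It was also lost with library sizes alone, without robust estimation and with limma on TPM.

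Markers of other cell states were measured beside the 9 genes. Of 14 myotube markers 11 were lower and none was higher (median -0.53), against 8.73% and 7.13% of all genes. Without normal library 1, normal library 3 or DM1 library 2 there were 7 lower markers, and without DM1 library 3 there was 1 higher. *Acta1*, *Tnnt3*, *Myh3* and *Myog* of this list also stand in the lists above. The lower markers included *Ckm* (log2 fold change -0.84, adjusted p = 0.00159) and *Actc1* (-0.77, adjusted p = 0.00197, both with edgeR). Their summed level ran from 15071 to 16319 CPM in the normal libraries and from 8567 to 10555 CPM in the DM1 libraries. Of 7 tested fibroblast markers 4 were higher and none was lower (also none with DESeq2 or at an unadjusted p under 0.05), with a summed level of 4025 to 4464 against 5042 to 5586 CPM, while the defining marker *Thy1* was not tested for lack of counts. *Fap*, which encodes a fibroblast protease and is named because of its values, had 1.88, 2.64 and 2.49 CPM in the normal group and 1.28, 1.70 and 0.331 CPM in the DM1 group, without overlap but short of the threshold (log2 fold change -1.08, adjusted p = 0.188 with edgeR). Only 2 were higher without any 1 of the normal libraries or DM1 library 2 and with limma on either TPM scale. *Col1a1*, a collagen gene, had 292, 269 and 290 CPM in the normal group and 548, 586 and 638 CPM in the DM1 group (log2 fold change 1.06, adjusted p = 9.16e-04 with edgeR). Undifferentiated myoblast markers were lower in 3 and higher in 2 of 10 genes, with overlapping summed levels of 472 to 485 and 455 to 495 CPM. Just 1 was lower without normal library 3, and 1 was higher without any 1 library other than DM1 library 3. *Hey1* was lower (log2 fold change -2.33, adjusted p = 0.00198) and *Cd34* higher (0.97, adjusted p = 0.00305, both with edgeR). The 2 tested adipocyte markers gave no call with edgeR or DESeq2 and none at an unadjusted p under 0.05, and *Adipoq*, *Fabp4*, *Cidec* and *Lep* had 0 counts.

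The 9 genes were therefore also divided by the summed CPM of the myotube markers in the same library, to see which fell by more or by less than this sum. Such a sum follows its most abundant genes and need not follow the typical marker. The median log2 fold change of the markers was -0.53, near those of *Klhl41* (-0.52) and *Klhl40* (-0.58). *Unc45b* per marker sum was lower in every DM1 library, by 0.47 on average on the log2 scale, a difference of -0.47 (p = 0.1 in the exact permutation test, 0.3 adjusted over 9 genes). *Lmod3* was also separate, with a difference of -0.31 (exact p = 0.1, 0.3 adjusted) that ran from -0.40 to -0.20 without any 1 library. *Hsp90aa1* per marker sum was higher in every DM1 library, by 0.95 (exact p = 0.1, 0.3 adjusted).

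The other 6 genes overlapped between the groups on this scale. Their differences were -0.19 for *Tmod1*, -0.13 for *Smyd1*, -0.039 for *Tmod4*, 0.055 for *Lmod2*, 0.19 for *Klhl40* and 0.25 for *Klhl41*, with exact permutation p-values between 0.2 and 1.0. Without any 1 library the difference ran from -0.30 to -0.094 for *Tmod1*, from -0.24 to -0.0068 for *Smyd1*, from -0.19 to 0.080 for *Tmod4*, from 0.0055 to 0.14 for *Lmod2*, from 0.11 to 0.27 for *Klhl40* and from 0.11 to 0.42 for *Klhl41*. When the summed myosin heavy chains were used instead of the marker sum, every one of the 9 differences was above 0, and that of *Unc45b* was 0.15 and that of *Lmod3* 0.31. The part of myotube content in the lower levels of the 9 genes was not tested beyond these ratios.

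**Figure D5:**
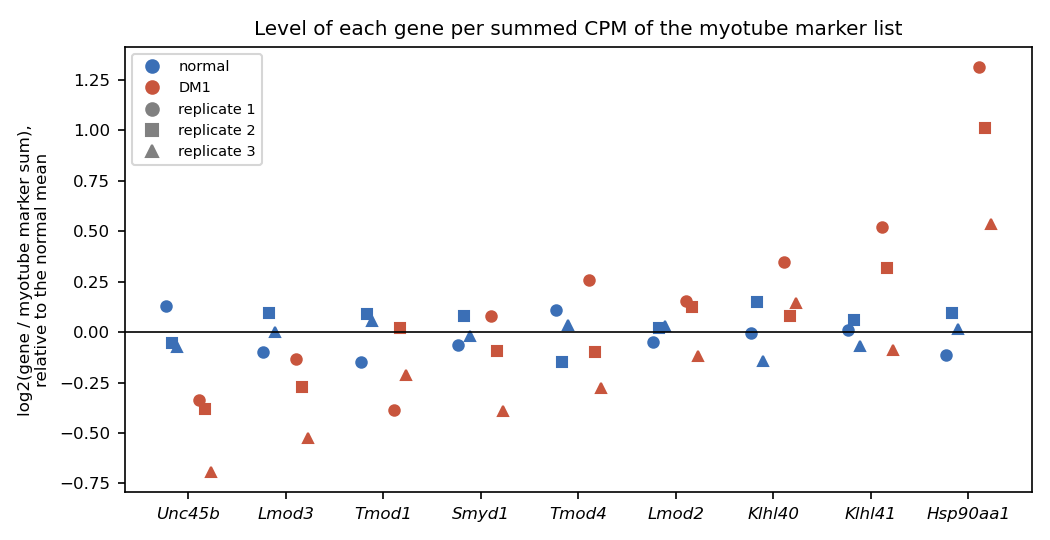
Log2 level of each of the 9 genes per summed CPM of the 14 myotube markers, relative to the mean of the normal group (vertical axis), with 1 symbol per library. The DM1 libraries of *Unc45b* and *Lmod3* lie below and those of *Hsp90aa1* above all normal libraries, and the other 6 genes overlap.

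Compared per transcript length, the order of the 9 genes was the same in both groups. In the normal group the TPM was 538 ± 6.37 for *Hsp90aa1*, 340 ± 27.9 for *Klhl41*, 97.3 ± 1.47 for *Lmod3*, 68.3 ± 3.79 for *Lmod2* and 63.7 ± 2.25 for *Smyd1* (SD, n = 3 each). It continued with 46.5 ± 1.27 for *Tmod1*, 16.96 ± 1.12 for *Klhl40*, 10.5 ± 1.64 for *Unc45b* and 2.51 ± 0.453 for *Tmod4*. Among neighbours in this order, only *Lmod2* and *Smyd1* had overlapping ranges. In the DM1 group the TPM was 564 ± 38.8 for *Hsp90aa1*, 217 ± 4.87 for *Klhl41*, 42.2 ± 3.34 for *Lmod3*, 38.2 ± 4.28 for *Lmod2*, 31.2 ± 1.68 for *Smyd1*, 23.0 ± 6.19 for *Tmod1*, 10.8 ± 1.88 for *Klhl40*, 4.03 ± 0.312 for *Unc45b* and 1.39 ± 0.139 for *Tmod4* (SD, n = 3 each). Here the ranges of the neighbours *Lmod3* and *Lmod2* overlapped, which those of the normal group did not.

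For each of the 9 genes, the most similar profile over the 6 libraries was sought among 14012 genes outside the 9 with a mean of at least 1 CPM. Similarity was the root mean square distance of log2(CPM + 0.5) centred on each gene's own mean. The 9 genes were not compared with each other. The closest profile to *Klhl41* was that of *Pccb*, a subunit of propionyl-CoA carboxylase (distance 0.0247), and the closest to *Lmod2* that of *Slf2* (0.0264). *Hsp90aa1* was closest to *Tsga10* (0.0280), *Tmod4* to *Pus7l* (0.0325), *Tmod1* to *Plcg2*, a phospholipase C gene (0.0393), and *Smyd1* to *Lrrc8b*, a volume-regulated anion channel subunit (0.0453). *Klhl40* was closest to *Ift122* (0.0485), *Unc45b* to the transcription factor gene *Sox8* (0.0557) and *Lmod3* to *Sntb1*, which encodes a syntrophin (0.0612). These distances describe 6 libraries and carry no test.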

How the data were processed

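RNA of 6 C2C12 libraries, 3 per group, was sequenced. After trimming with trim_galore, the authors mapped the reads to GRCm38 by HISAT2 and counted them by StringTie (versions not given in the sources used here), and deposited raw counts per gene. They also deposited, for each library, the coverage (signal), FPKM and TPM of every gene. A count stood for 75 aligned bases, since coverage times length gave the counts within 1 count in 99.1% of 6334 genes with 1 transcript.

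The counts were filtered with filterByExpr (minimum count 10, leaving 19005 of 55421 genes), scaled by TMM (factors 0.940 to 1.05) and tested with edgeR 4.0.16 (robust quasi-likelihood, group as the only term). CPM are TMM-scaled. The test was also run on counts simulated from the fitted means and dispersions. Of 200 genes changed by 2 on the log2 scale 165 were recovered, with 9 false calls. This change is larger than that of any of the 9 genes, so recovery of smaller changes was not measured. Between replicates of a group the chi-square divided by its degrees of freedom was 39.5 to 147, above sampling noise, so each counted as 1. Ratios were tested with exact permutation over libraries. All counting limits cover counting error only.

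The 9 genes and all gene lists were chosen with earlier results of these data known. Named were the 9 genes, *Lmod1*, *Tmod2*, *Tmod3*, *Unc45a*, *Hsp90ab1*, *Hsp90b1*, the 3 genes of each list with the smallest p in each direction among those called, and the closest profile to each of the 9. Alternatives were DESeq2 1.42.0, its size factors, library sizes alone, other filters, no mitochondrial genes, no robust estimation, a replicate block, counts divided by 4, glmTreat, limma 3.58.1 on log2(TPM + 1) and log2(TPM + 0.1), and leaving out each library. The FPKM columns were not used. Sequences came from RefSeq.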

Additional observations from a re-analysis of the deposited data

How the results depend on the processing

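Of the 9 genes, 7 were lower with DESeq2, with no robust estimation, without mitochondrial genes, without a filter beyond 1 count, with library sizes alone, with the size factors of DESeq2 and with limma on log2(TPM + 0.1). The number was 8 with at least 10 counts in every library and with counts divided by 4, 6 with limma on log2(TPM + 1), and between 5 and 7 without any 1 library. Those past both cutoffs were 2, but 4 with limma on either TPM scale and between 2 and 3 without any 1 library. glmTreat, which tests against a log2 fold change of 1, called 0 of the 9 by either rule, with the log2 fold changes of edgeR (-0.72 for *Lmod2*, -1.08 for *Lmod3*, -0.95 for *Tmod1*, -1.25 for *Unc45b*, -0.90 for *Smyd1*, -0.58 for *Klhl40*, -0.52 for *Klhl41*). *Tmod4* was called at -0.81 with at least 10 counts in every library and with counts divided by 4. *Klhl40* was not called at -0.61 with limma on log2(TPM + 1), and ranged from -0.65 to -0.49 without any 1 library, *Klhl41* from -0.58 to -0.44. No alternative called a gene of the 9 higher.

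Of 92 tested genes in the related lists, 33 were lower and 1, *Cfl1*, higher with edgeR. These became 1 and 0 with glmTreat, and 17 and 0 with limma on either TPM scale. Without any 1 library 14 to 37 were lower and 0 to 5 higher, with 19 lower without normal library 1, 18 without normal library 2, 15 without normal library 3 and 14 without DM1 library 2. Over all genes edgeR called 1660 lower and 1356 higher, limma 673 and 352 on log2(TPM + 1) and 696 and 354 on log2(TPM + 0.1), and glmTreat 1 and 3.

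Among the ratios, *Tmod4*/*Tmod1* ran from -0.094 (without DM1 library 1) to 0.29 without any 1 library, and *Klhl41*/*Klhl40* from -0.029 (without DM1 library 2) to 0.20. Per marker sum, *Lmod2* turned to -0.065 in TPM, and *Tmod4* to 0.21 with 0.5 CPM added, ranging from -0.19 to 0.080 without any 1 library. Per summed myosin heavy chains, the difference was 0.31 for *Lmod3*, 0.43 for *Tmod1*, 0.58 for *Tmod4*, 0.15 for *Unc45b* and 0.48 for *Smyd1*. The cause of these changes was not tested.

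Whether replicate numbers pair the samples was not settled. Across genes, deviations from the group means correlated at 0.113, 0.0518 and 0.0538 between libraries with the same number. Between libraries with different numbers the correlations ran from -0.103 to 0.0485, and every library correlated best with its own number. With a replicate block 7 of the 9 genes were lower, 2 of them past both cutoffs, and 32 genes of the related lists, and the block changed no call among the 9. In the lists it gave 4 lower genes of the HSP90 machine in place of 6. It also gave 5 lower thin filament genes in place of 6, and 3 lower HSF1 targets in place of 2. The low counts of *Tmod4* and the 3 libraries per group limit the precision.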

Other observations

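Genes that overlap the 9 on the opposite strand included *Tstd2* beside *Tmod1*, and *Krcc1* and *Gm44321* within the introns of *Smyd1*. *Gm44321* was counted between 170 and 221 times in the 6 libraries. *Krcc1* was counted 2138, 4561 and 1965 times in the normal group and 2350, 2045 and 4616 times in the DM1 group, so that 1 library of each group held about the same raised count. *Gm47108*, which shares exonic bases with *Klhl40*, had at most 17 counts. Among the undifferentiated myoblast markers, the Notch target *Hes1* fell by 0.67 on the log2 scale (adjusted p = 0.0143, edgeR's quasi-likelihood test), a call lost without normal library 2 (0.0593) or normal library 3 (0.0663). *Sdc4* (log2 fold change -0.38, adjusted p = 0.0284) and *Id2* (0.41, adjusted p = 0.0304, both with edgeR) lost their calls without normal library 1, normal library 3 or DM1 library 2 (adjusted p 0.0734 to 0.136), and *Id2* also without normal library 2 (0.0994) or DM1 library 1 (0.0562). Of the fibroblast markers, *Lum* rose by 0.81 (adjusted p = 0.0100, edgeR) and held without any 1 library, whereas *Dcn* rose by 0.45 (adjusted p = 0.0281, edgeR) and lost its call without any 1 of the normal libraries or DM1 library 2 (adjusted p 0.0664 to 0.115). The calls of *Sdc4*, *Id2* and *Dcn* were also lost with limma on either TPM scale.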
